A study of Mus musculus with 4 samples.

Results

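The zones described here are replication initiation zones in the last 10 Mb of mouse chromosomes 1 to 19, on the side of the distal telomere. A zone was a member where its midpoint lay less than 10 Mb from the last position of any zone on its chromosome, in whichever of the 2 deposited zone lists reached further. Of the 27871 zones of set 1 on these chromosomes, 2236 were members (8.02%), and of the 24245 zones of set 2, 1945 were members (8.02%). Over both lists this gave 4181 of 52116 zones, in 10 Mb on each chromosome and 190 Mb in all. The interior of the same chromosomes served as the comparison. It left out 10 Mb at the other end as well, and held 23475 zones of set 1 and 20430 zones of set 2.

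Polymerase-usage sequencing was applied to genomic DNA of E14tg2a, a line of embryonic stem cells from a male mouse. The parent line carries Tet-OsTIR1::Rosa26(bi), which supplies OsTIR1 under doxycycline, and mAID-RNaseh2a::puroR(bi), a degron on the catalytic part of RNase H2, the enzyme that cuts out single ribonucleotides left in DNA. The mutant line has these alleles and, in addition, Pole1-M630F(bi), a change in the catalytic subunit of DNA polymerase ε that leaves more ribonucleotides in the strand this enzyme makes. Both lines, in 2 replicates each, were given doxycycline with auxinole for 24 h and then doxycycline with IAA for 12 h, so that every library came from cells in which RNaseh2a was to be degraded; alkali-cleaved fragments of 300 to 2000 nt were sequenced. The libraries of replicate 1 carry the name set 1 and those of replicate 2 the name set 2. The sources used here do not tell if parent libraries went into the zone lists, and no comparison of parent with mutant was made. The labels do not state separate cultures for the replicates, so differences between the sets may be technical. The lists hold no read counts, and the depth behind a zone is unknown.

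DNA polymerase ε makes the leading strand and polymerase δ most of the lagging strand, so the strand that polymerase ε occupies switches where forks leave a point of initiation. In mammalian cells these points are spread over broad zones, in which any of many sites can fire in a given cell. Mouse chromosomes are acrocentric: the centromere lies close to the end with the lowest coordinates, and the end with the highest coordinates is that of the distal telomere.

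In both sets, the distal 10 Mb resembled the interior of the same chromosomes in the number, width, score and coverage of zones. Across 11 measures, no difference between distal and interior zones passed an adjusted p of 0.05 in a two-sided exact sign-flip permutation test over the 19 chromosomes, with Benjamini-Hochberg adjustment over the 11 tests. Single chromosomes differed from each other, as they also did in windows of 10 Mb further in. The distal end of chromosome 13 was rich in strong zones that both sets shared, and those of chromosomes 4, 5 and 11 held at most 1 pair of them. Chromosome 2 had a long stretch without any zone. These chromosomes were picked after their values were seen. Chromosomes of a list are not biological replicates, and the p-values measure how evenly a difference recurs from chromosome to chromosome.

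**Figure D1:**
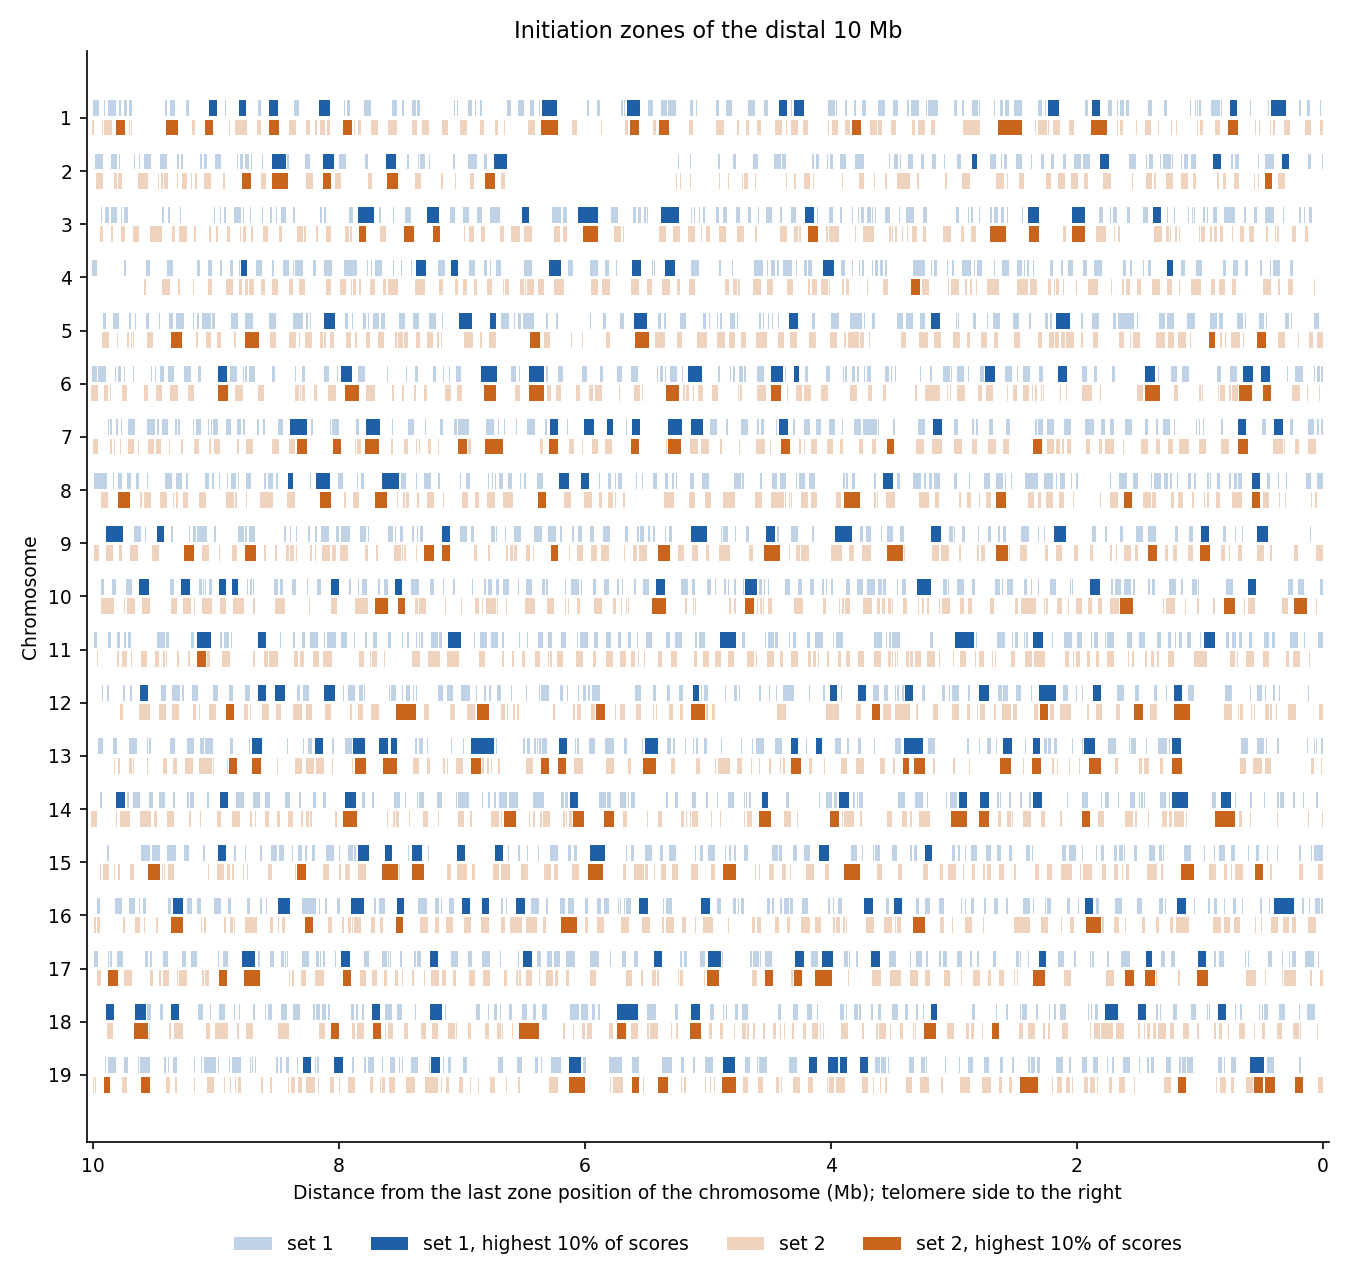
Every zone of the distal 10 Mb of chromosomes 1 to 19, drawn to scale by its distance from the last zone position of the chromosome (Mb, telomere side to the right), with set 1 in blue above set 2 in orange. Dark blocks are zones in the highest 10% of scores of their set; chromosome 13 shows 15 in each set, while chromosomes 4 and 11 show 1 each in set 2, and the gap on chromosome 2 is the longest zone-free stretch.

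Distal zones of set 1 numbered between 9.9 and 13.1 per Mb, with a median of 11.9 over chromosomes. Their mean was 11.8 ± 0.731 per Mb (SD, n = 19 chromosomes), against 11.6 ± 0.257 in the interior. In set 2 the distal values ran from 8.5 to 12.6 per Mb with a median of 10.1, and the means were 10.2 ± 0.950 distal and 10.1 ± 0.185 interior. Distal and interior values overlapped in both sets. Averaged over the sets, the difference was +0.144 zones per Mb (SD 0.626, 95% interval -0.158 to 0.440), above 0 on 11 of 19 chromosomes (adjusted p = 0.673, exact sign-flip permutation test). The median distance between neighbouring midpoints differed by +0.112 kb (SD 4.82, 95% interval -2.20 to 2.44; adjusted p = 0.925, exact sign-flip test).

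Zone widths of the distal ends were more scattered in set 2 than in set 1. The median width of distal zones of set 1 ranged over chromosomes from 14.5 to 22 kb around a median of 18 kb, and that of set 2 from 16 to 36 kb around 24.5 kb. Interior medians lay between 16 and 21 kb in set 1 and between 18 and 25 kb in set 2. The mean difference over both sets was +0.684 kb (SD 3.13, 95% interval -0.812 to 2.21, above 0 on 10 of 19 chromosomes; adjusted p = 0.673, exact sign-flip test). It came from set 2 alone, where it was +1.50 kb (SD 5.75); in set 1 it was -0.132 kb (SD 2.54). By class of width, 832 distal zones of set 1 (37.2%) were at most 10 kb wide and 99 (4.43%) were wider than 80 kb, with 37.0% and 5.26% in the interior. The classes of set 2 held 647 (33.3%) and 146 (7.51%) of its distal zones, with 33.7% and 8.38% in the interior. Zones of a single 1 kb bin made up 253 distal zones of set 1 (11.3%) and 196 of set 2 (10.1%); the share differed from the interior by -0.275 points (SD 1.58, 95% interval -1.04 to 0.488; adjusted p = 0.716, exact sign-flip test).

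Zones covered 60.9 Mb of the distal 190 Mb in set 1 and 63.0 Mb in set 2. Per chromosome this came to 32.0% ± 1.83 (SD, n = 19) of the distal stretch in set 1 and 33.1% ± 2.54 in set 2, against 31.9% ± 0.976 and 32.8% ± 0.834 in the interior. The difference was +0.262 points (SD 2.20, 95% interval -0.790 to 1.23; adjusted p = 0.774, exact sign-flip test). Averaged over the sets, distal coverage was above interior coverage on 13 of 19 chromosomes. In set 1 alone it was on 10, and in set 2 alone on 11.

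**Figure D2:**
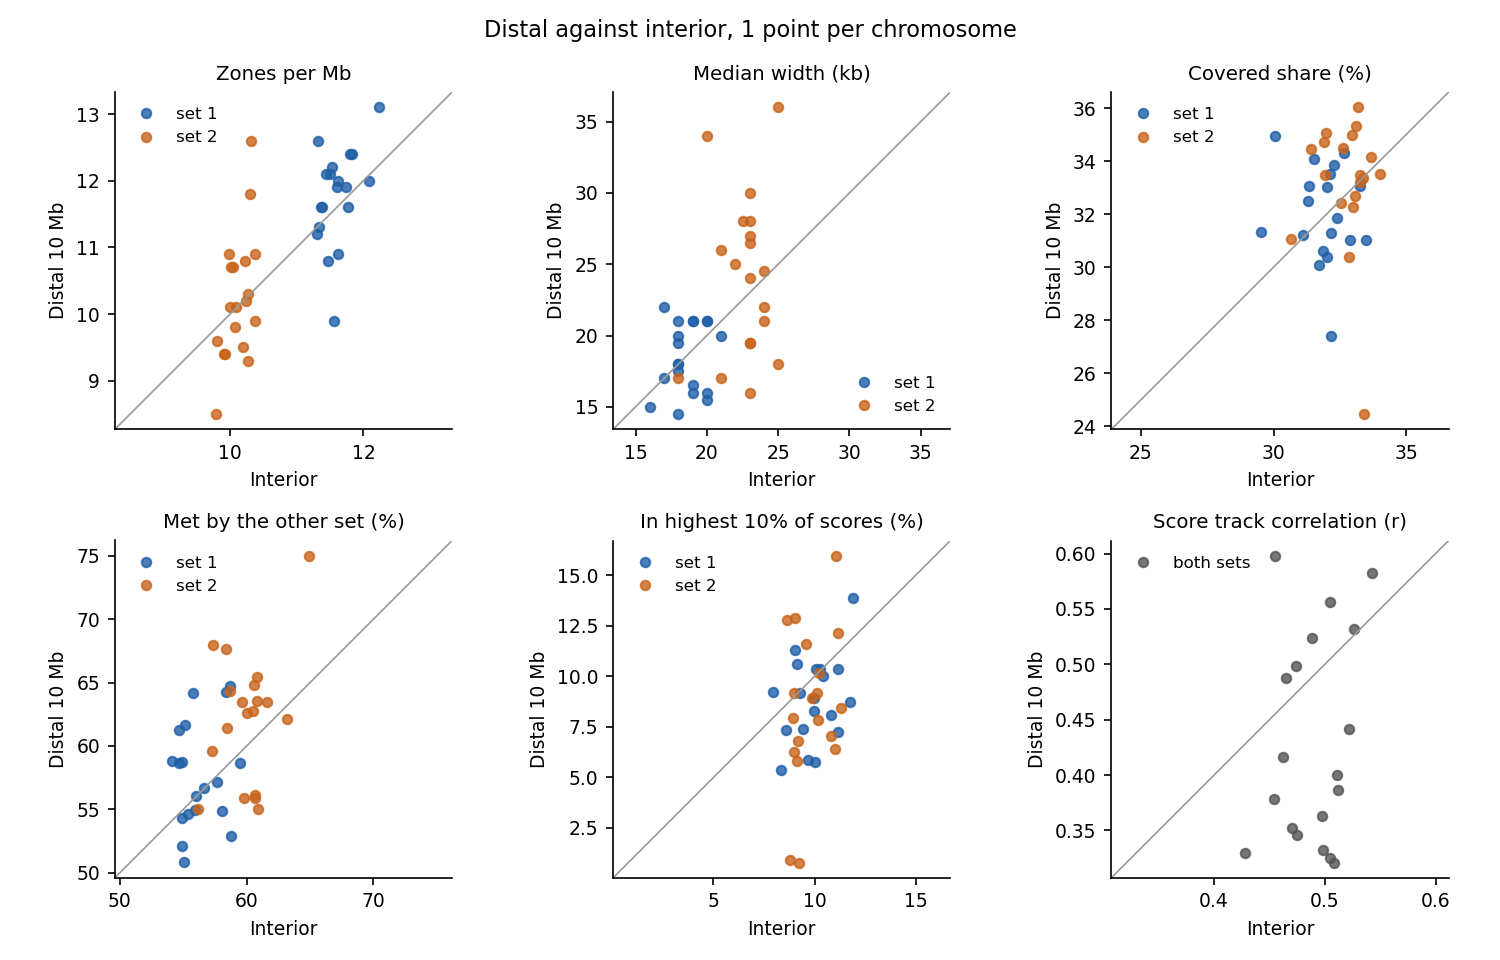
Distal against interior values of 6 measures, 1 point per chromosome and set (for the correlation of score tracks, 1 point per chromosome). The grey line marks equality. Points lie on both sides of it in every panel, with 12 of 19 chromosomes below it for the track correlation and with chromosomes 4 and 11 lowest in set 2 for the highest 10% of scores.

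Along the last 10 Mb, zone number showed no run toward the end, while coverage was lower in the last Mb. Set 1 had 12.1 ± 2.76 zones per Mb (SD, n = 19) in the last Mb and 11.8 ± 2.12 in the Mb before it, and set 2 had 10 ± 2.05 and 9.84 ± 2.17. Coverage in the last Mb was 27.5% ± 6.16 in set 1 and 30.3% ± 6.17 in set 2, and in the Mb before it 32.2% ± 4.62 and 33.0% ± 5.05. These SDs give the scatter over chromosomes, and the step was not tested. Zones of set 1 in the last Mb had a median width of 13 kb over all chromosomes together, against 19 kb between 1 and 5 Mb; in set 2 these values were 23.5 and 25 kb. Since the end of the stretch is itself the end of a zone in at least 1 of the sets, the last Mb is defined partly by the zones it holds.

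**Figure D3:**
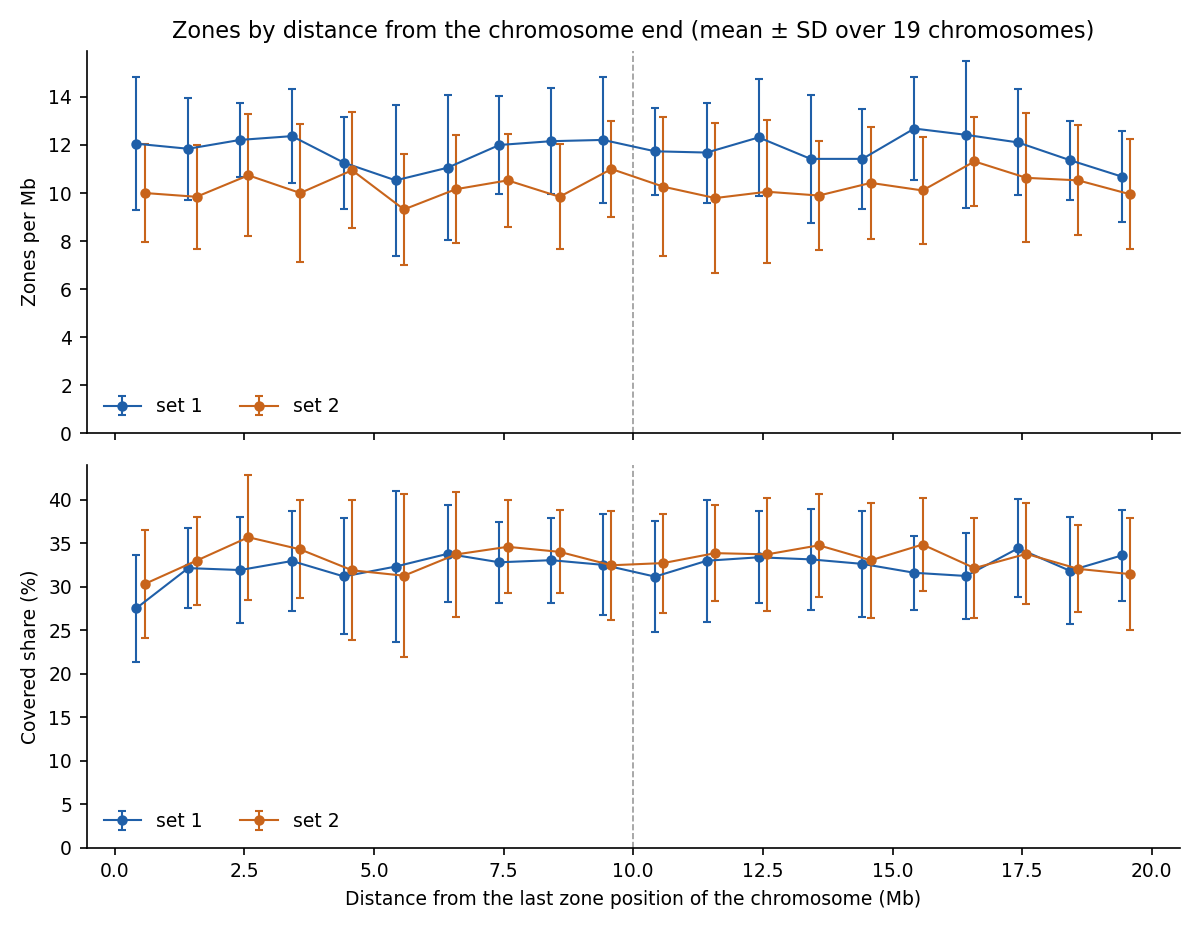
Zones per Mb (top) and percent of 1 kb bins inside a zone (bottom) in steps of 1 Mb from the last zone position, as mean ± SD over 19 chromosomes for set 1 (blue) and set 2 (orange). The dashed line marks 10 Mb, where membership ends; the values run level across it, and the lowest coverage of set 1 is the 27.5% of the last Mb.

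None of the 19 last zones of set 1, nor of the 19 of set 2, was in the highest 10% of scores of its set. Their scores had a median of 4.45 in set 1 (lowest 0.105, highest 56.8) and 9.34 in set 2 (lowest 0.110, highest 44.4), and their median widths were 13 and 21 kb. The last zone of set 1 met a zone of set 2 on 9 of 19 chromosomes, and the last zone of set 2 met one of set 1 on 11. Wherever they lay on chromosomes 1 to 19, zones overlapped the other list in 56.3% of cases for set 1 and 60.2% for set 2. The last positions of the 2 sets coincided on chromosome 15 and lay 110 kb apart on chromosome 12, the largest distance of any chromosome. The rule for the end picks the outermost zone of either set, and beyond it lies no zone to overlap. The last zones are therefore described, and their counts were not tested against the shares of all zones.

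Scores, the authors' deposited value of each zone with no stated unit, were compared only within a set. The median score of distal zones of set 1 ran from 5.19 to 10.03 over chromosomes, with a median of 6.47, and that of set 2 from 4.62 to 17.5, with a median of 9.49. Distal over interior, the ratio of median scores was 1.02 (95% interval 0.916 to 1.14; adjusted p = 0.774, exact sign-flip test). The summed score per Mb was 0.958 times the interior value (95% interval 0.910 to 1.008), with the distal value higher on 7 of 19 chromosomes (adjusted p = 0.259, exact sign-flip test). Sums per Mb in the distal stretch ranged from 199.5 to 264.1 in set 1 and from 170.7 to 282.3 in set 2.

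Strong zones, those at or above the 90th percentile of scores of their set (59.2 in set 1, 75.2 in set 2), made up a lower mean share of distal zones, by an amount that did not pass the adjusted threshold. Over chromosomes 1 to 19, 10% of zones of set 1 and 10% of zones of set 2 are strong by definition; 197 of 2236 distal zones of set 1 (8.81%) and 161 of 1945 of set 2 (8.28%) were. By chromosome the share ran from 5.34% to 13.9% in set 1 with a median of 8.93%, and from 0.794% to 16.0% in set 2 with a median of 8.41%. Interior shares spanned 7.94% to 11.9% and 8.66% to 11.3%, inside the distal ranges. The mean difference was -1.21 points (SD 2.51, 95% interval -2.42 to 0.00349), below 0 on 13 of 19 chromosomes (p = 0.0506, adjusted p = 0.259, exact sign-flip test). Against the neighbouring 10 Mb the difference was -0.286 points, with 10 of 19 chromosomes above 0 (adjusted p = 0.995, exact sign-flip test). The mean distal share of set 2 was 8.47%, and the shares of the next windows inward were 7.78%, 7.71% and 10.3%; in set 1 the distal share was 8.85% and those of the windows inward 10.1%, 9.06% and 10.1%. Set 1 held 91 strong zones among 1135 zones within 5 Mb of the end (8.02%) and 106 among 1101 between 5 and 10 Mb (9.63%). For set 2 the counts were 72 of 979 (7.35%) and 89 of 966 (9.21%). The chromosomes with a distal excess or deficit of strong zones tended to be the same in both sets: the difference had the same sign on 15 of 19 chromosomes, with a Pearson r of 0.543 over the 19 points. Both sets map the same cell line and the same stretches, and this r is a description.

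Zones of the 2 sets overlapped in the distal stretch about as they did elsewhere. Over chromosomes 1 to 19 in whole, the share of zones that shared at least 1 bin with the other list was 56.3% in set 1 and 60.2% in set 2. In the distal 10 Mb, 1288 of 2236 zones of set 1 (57.6%) and 1208 of 1945 zones of set 2 (62.1%) did, and in the interior 56.2% and 60.1%. The mean difference was +1.79 points (SD 4.15, 95% interval -0.221 to 3.81), above 0 on 13 of 19 chromosomes (adjusted p = 0.259, exact sign-flip test). Bins covered by both sets were 1.54 ± 0.131 times (SD, n = 19) the product of the covered shares in the distal stretch and 1.55 ± 0.0350 times in the interior, a ratio of 0.989 (95% interval 0.954 to 1.03; adjusted p = 0.750, exact sign-flip test).

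Distal zones of higher score and greater width were met more often, as were interior zones. The share that width alone would give was not computed. With the zones of set 1 in 5 classes of score of equal size over chromosomes 1 to 19, 28.7% of distal zones in the lowest class met a zone of set 2, 53.2% in the middle class and 93.9% in the highest; interior shares were 28.0%, 49.9% and 94.4%. The corresponding distal shares of set 2 were 27.2%, 59.3% and 97.8%, and its interior shares 28.2%, 55.4% and 97.9%. Among distal zones wider than 80 kb, all 99 of set 1 and 145 of 146 of set 2 were met, against 99.7% and 99.4% in the interior. Under stricter rules fewer distal zones were met. By an overlap of at least 50% of both zones, 412 pairs remained, which took in 18.4% of distal zones of set 1 and 21.2% of set 2, against 17.9% and 20.6% in the interior. With midpoints within 10 kb, 549 distal zones of each set had a partner (24.6% and 28.2%), against 25.2% and 28.9% in the interior. A distal zone of set 1 met exactly 1 zone of set 2 in 1154 cases, 2 zones in 113 and 3 or more in 21.

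The correlation of scores between the sets had a lower mean in the distal stretch than in the interior, by an amount that did not pass the adjusted threshold and was smaller against the adjoining stretch. The Pearson r between the score tracks of the sets, taken over 1 kb bins with 0 outside zones, ranged from 0.321 to 0.598 in the distal stretch with a median of 0.400. Its mean was 0.430 ± 0.0945 (SD, n = 19), against 0.489 ± 0.0294 in the interior, a difference of -0.0594 (SD 0.0930, 95% interval -0.104 to -0.0142), below 0 on 12 of 19 chromosomes (p = 0.0141, adjusted p = 0.155, exact sign-flip test). Against the neighbouring 10 Mb the difference was -0.0272, with 8 of 19 chromosomes above 0 (adjusted p = 0.801, exact sign-flip test). Chromosome 1 had the lowest distal r, 0.321, against 0.508 in its interior, and chromosome 3 the highest, 0.598 against 0.455. With only the last 5 Mb counted as distal, the difference was -0.115 and passed the threshold (adjusted p = 0.0374, exact sign-flip test). Distal stretches are shorter than interiors; against the mean r of interior windows of equal length, a comparison added after the data were seen, the differences were -0.0466 for 10 Mb (adjusted p = 0.304) and -0.0980 for 5 Mb (adjusted p = 0.1002, both by the exact sign-flip test).

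Pairs of overlapping zones that were strong in both sets were fewer per Mb in the distal stretch than in the whole interior. There were 88 such pairs, or 0.463 per Mb (SD over chromosomes 0.327), against 1246 or 0.616 per Mb (SD 0.0753) in the interior, and the distal value was the lower on 14 of 19 chromosomes. This count was chosen after the data were seen and was not tested. Distal pairs per chromosome ranged from 0 to 14 with a median of 3. The midpoints of distal strong pairs lay a median of 11.8 kb apart, and those of interior pairs 14.0 kb.

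**Figure D4:**
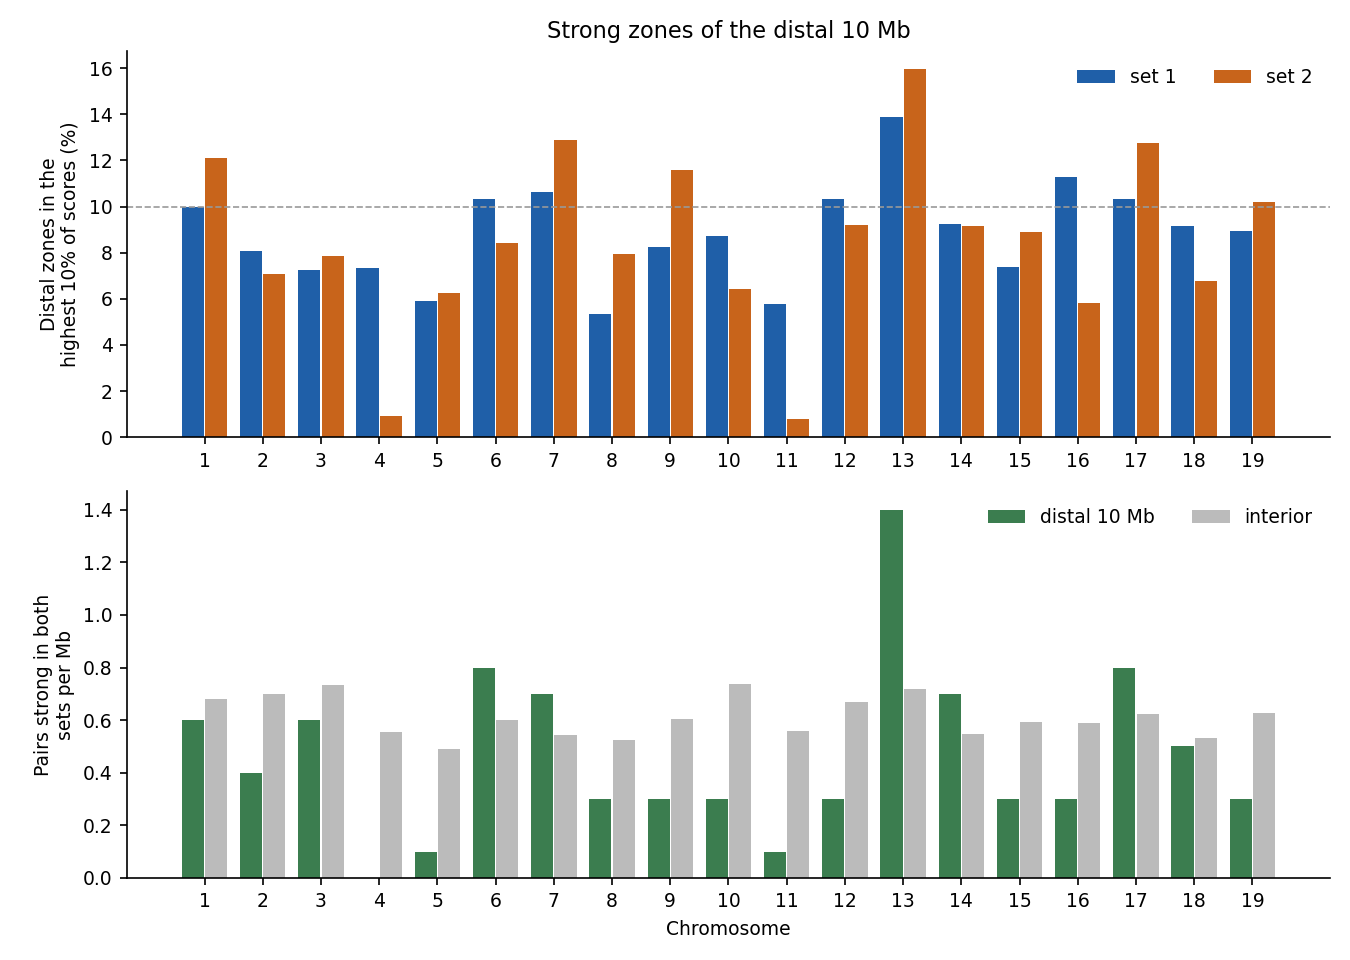
Percent of distal zones in the highest 10% of scores of their set by chromosome (top; the dashed line is the 10% of all zones), and overlapping pairs strong in both sets per Mb in the distal stretch and in the interior (bottom). Chromosome 13 stands highest in both panels with 14 distal pairs, and chromosome 4 has none.

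The distal end of chromosome 13 held the most strong zones. Here 15 of 108 zones of set 1 (13.9%) and 15 of 94 zones of set 2 (16.0%) were strong, against 11.9% and 11.1% in its interior. Its 14 strong pairs lay between 1.19 and 8.67 Mb from the end, and the distal window ranked first of 11 windows of 10 Mb on this chromosome for the share of strong zones. Most of its zones were narrow, with a median width of 14.5 kb (set 1) and 19.5 kb (set 2), while the interior medians were 18 and 23 kb. The typical zone also scored lower than in the interior, with medians of 6.31 against 7.20 in set 1 and 6.51 against 8.31 in set 2. For median score, averaged over the sets, the distal window ranked last of the 11. Coverage was 31.3% and 30.4%, below the 32.2% and 32.9% of the interior. The widest distal zone of set 1 on any chromosome lay here, at chr13:113806000-113986000 (GRCm39, positions as deposited), 181 kb wide with a score of 154.7. The track correlation of the stretch was 0.582, above the 0.543 of its interior.

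Chromosomes 4 and 11 showed the reverse in their share of strong zones, on chromosome 4 mainly in set 2. On chromosome 11, 7 of 121 distal zones of set 1 (5.79%) and 1 of 126 of set 2 (0.794%) were strong, against 10% and 9.22% in the interior. This was so while its zones were numerous: 12.1 per Mb in set 1 and 12.6 in set 2, against 11.4 and 10.3 in its interior. Averaged over the sets this excess was the largest of any chromosome. In set 1 alone chromosomes 10, 8 and 15 had larger ones, with 12.6, 13.1 and 12.2 per Mb against 11.3, 12.2 and 11.5. On chromosome 11 the summed score per Mb was 199.5 in set 1 and 170.7 in set 2, against 231.2 and 250.3. Its distal window ranked last of its 11 windows for both the share of strong zones and the summed score. Chromosome 4 had 8 of 109 (7.34%) and 1 of 107 (0.935%) strong zones, against 8.58% and 8.81% in the interior. Its distal window was last of 15 for the share of strong zones. For the summed score it was last by a narrow margin, at 0.8554 of the mean over windows against 0.8560 for the next lowest. Coverage on these chromosomes was close to that of their interiors. It was 34.3% and 33.5% on chromosome 11, against 32.7% and 34.0%, and 31.2% and 32.4% on chromosome 4, against 31.1% and 32.5%. The typical zone of chromosome 4 scored higher than in its interior, with medians of 9.59 against 7.02 in set 1 and 10.04 against 8.49 in set 2. Its median widths were 21 against 18 kb and 27 against 23 kb. On chromosome 11 the median scores were 7.12 against 7.24 in set 1 and 5.76 against 8.26 in set 2. The strongest distal zone of set 2 scored 91.0 on chromosome 11 and 78.9 on chromosome 4, while the median of such maxima over chromosomes was 148.9. Only 1 strong pair was found at the end of chromosome 11 and none at that of chromosome 4, while their interiors held 0.557 and 0.554 per Mb. Chromosome 5 also had 1 distal strong pair, against 0.490 per Mb in its interior, with 7 of 119 (5.88%) and 6 of 96 (6.25%) distal zones strong, against 9.65% and 8.96%.

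Chromosome 2 had the fewest distal zones and the lowest coverage. Set 1 had 99 zones there (9.9 per Mb) covering 27.4%, and set 2 had 85 (8.5 per Mb) covering 24.5%; its interior had 11.6 and 9.79 zones per Mb and coverage of 32.2% and 33.4%. A stretch of 1371 kb without a zone of either set, chr2:175022000-176392000, lay 5.26 Mb from the end, and another of 223 kb followed at chr2:176514000-176736000. The distal density and coverage of chromosome 2 count both stretches as part of its 10 Mb. Values for the rest of this end alone are not given here. No other distal end had a zone-free stretch above 500 kb; the next longest was 472 kb, at chr13:119586000-120057000. Stretches of at least 200 kb numbered 4 in all distal ends, 2.11 per 100 Mb, against 70 or 3.46 per 100 Mb in the interior. The share of bins free of zones in both sets was 51.2% distal and 51.6% interior. Gaps in the assembly and sequence that is hard to map were not analysed here.

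On chromosomes 5 and 7 the distal zones were wide in set 2. Median widths of set 2 were 36 kb on chromosome 5 and 34 kb on chromosome 7, and 25 and 20 kb in their interiors. Set 1 gave 18 and 20 kb there, with 18 kb in both interiors. On chromosome 5, 72 of 96 distal zones of set 2 (75%) met a zone of set 1, the highest distal share of any chromosome. Its interior share in set 2, 64.9%, was also the highest of any chromosome. Averaged over the sets, chromosome 7 had the largest excess in median score and in coverage. Its median scores were 8.96 against 7.02 in set 1 and 14.8 against 7.58 in set 2, and its coverage 34.9% against 30.0% and 34.5% against 31.4%. Single sets ordered chromosomes otherwise. For the score of set 1, chromosomes 2 (10.03 against 6.81), 17 (9.47 against 6.52) and 4 (9.59 against 7.02) had a larger excess. For the coverage of set 2, chromosome 16 did (35.05% distal). For width, the sets did not single out the same chromosomes: the Pearson r between their distal-minus-interior differences was -0.00667 over 19 chromosomes, and the sign was shared on 8. For coverage the r was 0.590 with 10 shared signs.

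Distal ends scattered more than whole interiors. Windows of 10 Mb further in scattered as much: the SD over chromosomes of the zones per Mb of set 1 was 0.731 in the last 10 Mb and 0.692, 0.686 and 0.810 in the windows that follow inward. Set 2 gave 0.950, and then 0.916, 0.911 and 0.900. For the share of strong zones of set 1 the SD was 2.12 points, and then 3.45, 3.01 and 3.80. In set 2 it was 3.79, and then 3.32, 3.04 and 5.48. Shares of strong zones of set 2 ran from 0.794% to 16.0% in the last 10 Mb. Between 30 and 40 Mb from the end they ran from 1.96% to 21.1%.

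The strongest distal zone of a chromosome scored between 97.4 and 170.0 in set 1, with a median of 120.2, and between 78.9 and 213.0 in set 2, with a median of 148.9. On 5 of 19 chromosomes (3, 10, 12, 16 and 17) the strongest zone of set 1 overlapped that of set 2. The same count in other windows of 10 Mb was not computed. The highest score of set 1 belonged to chr1:189373000-189482000, 110 kb wide and 5.60 Mb from the end, with a score of 170.0 that ranks 33 among the zones of its set. In set 2 it was chr16:88453000-88556000, 104 kb wide and 9.32 Mb from the end, with a score of 213.0 and rank 14. The widest distal zone of set 2, chr1:192393000-192588000, spanned 196 kb with a score of 202.3.

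Among the 1446 overlapping distal pairs, the best by mean rank of score lay on chromosome 17, 2.28 Mb from the end in set 1. It joined chr17:92888000-92946000 of set 1 (score 151.3) with chr17:92834000-92937000 of set 2 (score 176.5). Next came chromosome 14, with chr14:117093000-117178000 (164.8) and chr14:117071000-117188000 (156.4), whose midpoints differ by 6 kb. On chromosome 3, 1.99 Mb from the end, the zone chr3:157576000-157684000 (162.8) and its partner chr3:157578000-157682000 (154.8) had the same midpoint. Chromosome 19 followed with chr19:55172000-55271000 (136.1) and chr19:55178000-55301000 (166.5), 6.08 Mb from the end. On chromosome 10 the pair was chr10:125009000-125081000 (119.9) and chr10:124977000-125091000 (204.4), the latter ranked 28 in its set. The strong pair closest to an end among these 10 was on chromosome 14, with chr14:124210000-124294000 (121.0) and chr14:124164000-124324000 (184.1), 0.787 Mb from the end in set 1. The remaining 4 lay on chromosomes 12, 17, 3 and 13, between 1.18 and 5.97 Mb from the end in set 1. In all 10 pairs the zone of set 2 was between 104 and 161 kb wide, while those of set 1 were between 59 and 161 kb.

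Strong zones without a partner were rare at the distal ends, as in the interior. Of the distal ones, 2 of 197 in set 1 and 1 of 161 in set 2 met no zone of the other list. In the interior these counts were 27 of 2342 and 13 of 2020. Distal zones in the highest of the 5 score classes had a median width of 64 kb (set 1) and 72 kb (set 2). How many zones of such width would meet the other list by width alone was not computed. The highest-scoring distal zone of set 1 that met none of set 2 was chr13:116609000-116656000, 48 kb wide with a score of 78.5 and rank 1565. In set 2 the single such strong zone was chr18:82554000-82624000, 71 kb wide with a score of 81.9 and rank 2055. The widest unmet distal zones were chr3:152851000-152926000 of set 1 (76 kb, score 56.2) and chr7:143607000-143689000 of set 2 (83 kb, score 36.8).

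At the 10 Mb border, the innermost members had their midpoints 9.998 Mb from the end in set 1, on chromosome 15 with a score of 2.04, and 9.997 Mb in set 2, on chromosome 19 with a score of 1.51. The nearest zones outside lay at exactly 10 Mb in set 1, on chromosome 10 with a score of 0.341, and at 10.004 Mb in set 2, on chromosome 12 with a score of 19. Within 0.1 Mb of the border there were 22 members of set 1 against 23 zones just outside, and 22 against 22 for set 2.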

How the data were processed

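Genomic DNA of 4 samples (parent and Pole1-M630F, 2 replicates each) was analysed through 2 zone lists. Per the submitters' processing notes, the aligner was Bowtie2, version not given here, and the build GRCm39. The authors deposited, for each zone, chromosome, first and last position and a score; not given in the sources used here are the zone caller, the meaning of the score and any pooling of parent with mutant libraries. Positions are multiples of 1 kb, and the last was read as the zone's last 1 kb bin. The members, measures and lists were chosen with earlier results of these data known.

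Distal and interior values were computed per chromosome and set, and their differences averaged over the sets. The mean difference was tested by a two-sided exact sign-flip permutation test over 19 chromosomes (524288 sign patterns), adjusted over 11 measures. The 95% intervals invert that test. On simulated lists the test was tried for zones per Mb only, and the intervals were not tried. Ratios are differences of log2 values turned back. Named zones are the 10 overlapping pairs with the best mean rank, the extreme zones of each set, the last zones and the longest zone-free stretches; zones of single chromosomes were also named after their values were seen. Alternatives changed the length of the distal stretch, the interior, the overlap rule, the score minimum, the reading of the last position, the summary over chromosomes and the sets used. Genes and sequences were not used, since the tables at hand are on GRCm38.p6. Calculations used Python 3.11.15, NumPy 2.4.6 and Matplotlib 3.10.9.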

Additional observations from a re-analysis of the deposited data

How the results depend on the processing

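Of 135 alternative values for the 11 measures, 110 kept their direction and their side of the threshold, 24 changed direction and 1 passed the threshold; no difference that changed direction was past it. The one that passed was the track correlation in the last 5 Mb, -0.115 (adjusted p = 0.0374, exact sign-flip test); its other values lay between -0.0980 and -0.0272, the latter against the neighbouring 10 Mb (adjusted p = 0.801). Mean windows of equal length as the interior, for 10 and 5 Mb, were chosen after seeing the data. Against the neighbouring 10 Mb, the differences were -0.0368 zones per Mb, -1.08 kb in width, -0.0762 in log2 median score, -0.347 points in coverage and -0.0921 kb in spacing. With 5 Mb, coverage differed by -0.265 points, and against windows of 5 Mb by -0.269 points, with -0.00810 kb in width and -0.148 in log2 score. Log2 median score was -0.0571 among zones at or above the median score, -0.00707 without the chromosome of the largest difference (7) and -0.0400 against windows of 10 Mb. The share met was -0.823 points with midpoints within 10 kb, and the share of single-bin zones +0.000496 points with 20 Mb. Spacing was -0.362 kb with 20 Mb, -0.303 kb against all other zones, -4.54 kb among zones at or above the median score, -0.757 kb with plain interval ends, -0.375 kb as a median over chromosomes, -0.479 kb without the chromosome of the largest difference (again 7) and -0.0154 kb against windows of 10 Mb. Leaving out either replicate gave -0.132 to 1.50 kb for width, -0.0231 to 0.0791 for log2 score and -0.579 to 0.803 kb for spacing. Strong-zone share, summed score, shared bins and track correlation kept their sign in every alternative run for them.

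Single-bin shares have no value under the score minimum and plain ends, and measures that join both sets none without a replicate. No paired analysis was possible because each list gives zones of 1 set, without values for parent and mutant apart. Depth is unknown and counting error is not given; intervals cover scatter between chromosomes. The distal end is the last zone, not the last base of the assembly, and unassembled sequence was not removed.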

Other observations

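Chromosome X lies outside the comparisons. Its distal 10 Mb held 123 zones of set 1 and 113 of set 2, and 17 (13.8%) and 14 (12.4%) of them were at or above the 90th percentile set by chromosomes 1 to 19. In the interior of X these shares were 10.9% in each set. Distal coverage was 31.3% in set 1 and 29.0% in set 2, against 27.7% and 30.2% in the interior, so the sets differ in direction. The track correlation was 0.472 distal and 0.404 interior. With 1 chromosome, none of this was tested.

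Counted over windows of 10 Mb along each of the 19 chromosomes, 230 in all, the distal window had the lowest share of strong zones on 4 chromosomes (3, 4, 10 and 11) and the highest on 1 (13). It had the lowest track correlation on 5 chromosomes (1, 9, 10, 15 and 16) and the highest on 1 (3). The summed score was lowest there on 4 chromosomes (2, 3, 4 and 11) and highest on 1 (17). These measures all draw on the zone scores. For the other measures the distal window was lowest on at most 2 chromosomes and highest on at most 3. Chromosomes held between 5 (chromosome 19) and 19 (chromosome 1) such windows. The count to be expected of a window placed anywhere was not computed, and the counts were not tested.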
